A study of Mus musculus with 4 samples.

Results

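The 36 DNA repair genes described here were chosen by symbol in 4 pathways: 12 of nucleotide excision repair, 10 of the Fanconi anaemia crosslink pathway, 10 of homologous recombination and 4 of mismatch repair. Every one of the 36 was found as 1 row among the 25509 gene rows of the deposited count table, by its Ensembl identifier and the GRCm38 annotation. The rule goes by symbol and uses no measured value, but the genes were chosen with earlier results of these data known. All 36 passed the filter on low counts, with counts between 64 and 11324 in a single library. RNA came from splenocytes, the cell suspension of the spleen, of mice aged 8 weeks that were shaved on the back and exposed to UVB at 100 mJ/cm2. The wild-type group held 2 libraries and the Trim21-/- group, called knockout below, held 2. The labels name neither the strain nor the exons that Trim21-/- mice lack, and they give UVB for 1 or 3 weeks with no week for a single sample. Both groups were irradiated, and unexposed spleens are not analysed here, so no value below measures the effect of UVB.

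Nucleotide excision repair removes bulky lesions such as the pyrimidine dimers made by UVB: damage is recognised in the whole genome or at a stalled RNA polymerase, DNA is opened by TFIIH, and a short stretch is cut out on both sides and filled in. The Fanconi anaemia pathway unhooks crosslinks between the strands during replication, homologous recombination copies the intact sister to mend breaks and collapsed forks, and mismatch repair corrects errors of the replicative polymerases. The last 3 work mostly on replicating or freshly replicated DNA, while excision repair also serves cells at rest. In the spleen, most lymphocytes rest, and blood cell precursors and activated lymphocytes divide.

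Library totals ran from 36173694 to 41924885 counts. Trim21, an E3 ubiquitin ligase and antibody receptor of the cytosol, stood at 27.9 and 40.9 CPM (the count relative to library size, with TMM scaling) in wild-type libraries 1 and 2 and at 13.4 and 20.4 CPM in knockout libraries 1 and 2. The knockout libraries were the lower ones, with a log2 fold change of -1.02 ± 0.42 (SE) that did not pass the test (adjusted p = 0.17). Library 1 of each genotype held 2 counts or fewer of Xist and 2768 or more of 4 Y-linked genes, and library 2 held 0 counts of those genes and 12419 or more of Xist, so the replicate number goes with a male or female pattern in the same way in both genotypes. The 2 libraries of a genotype also differed by transcript length: long genes were higher in library 2 of each. No label says whether the libraries came from separate mice, but their opposite male and female patterns show that the 2 libraries of a genotype did. The p-values cover only the spread between these samples, and within a genotype that spread includes the difference in sex pattern.

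The question put to the table was whether repair transcripts differed between genotypes, and in which pathways. Differences were larger for recombination genes than for excision repair genes. With edgeR's quasi-likelihood test adjusted over all 13532 genes tested, 4 of the 36 genes rose in knockout spleen: Rad51ap1 and Rad54l of homologous recombination, Fanci of the Fanconi anaemia pathway and Exo1 of mismatch repair. That is 11.1% of the repair genes, and 5.9% of all genes tested rose. None of the 36 fell, against 0.392% of all genes, and 32 did not pass. At an unadjusted p under 0.05 there were 12 of the 36, against 27.7% of all genes tested. Of the 12, 11 were higher, where 15.5% of all genes were, and Ercc6 was lower, where 12.3% were. With wild-type library 1 or 2 left out, 9 or 11 of the 36 rose, beside 16.4% or 10.8% of all genes. With knockout library 1 or 2 left out, Rad51ap1 and Rad54l alone rose, beside 4.23% or 6.3% of all genes. The median log2 fold change of knockout over wild type was 0.48 over the 36 genes and -0.06 over all genes tested.

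Both knockout libraries lay above both wild-type libraries for 20 of the 36 genes and below both for 7, while the groups overlapped for 9. Among all genes tested, 30.3% lay above and 30.1% below. These counts were uneven across the pathways. Above both wild-type libraries were 8 of 10 homologous recombination genes, 7 of 10 Fanconi anaemia genes, 3 of 4 mismatch repair genes and 2 of 12 excision repair genes. All 7 genes that lay below were excision repair genes.

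**Figure D1:**
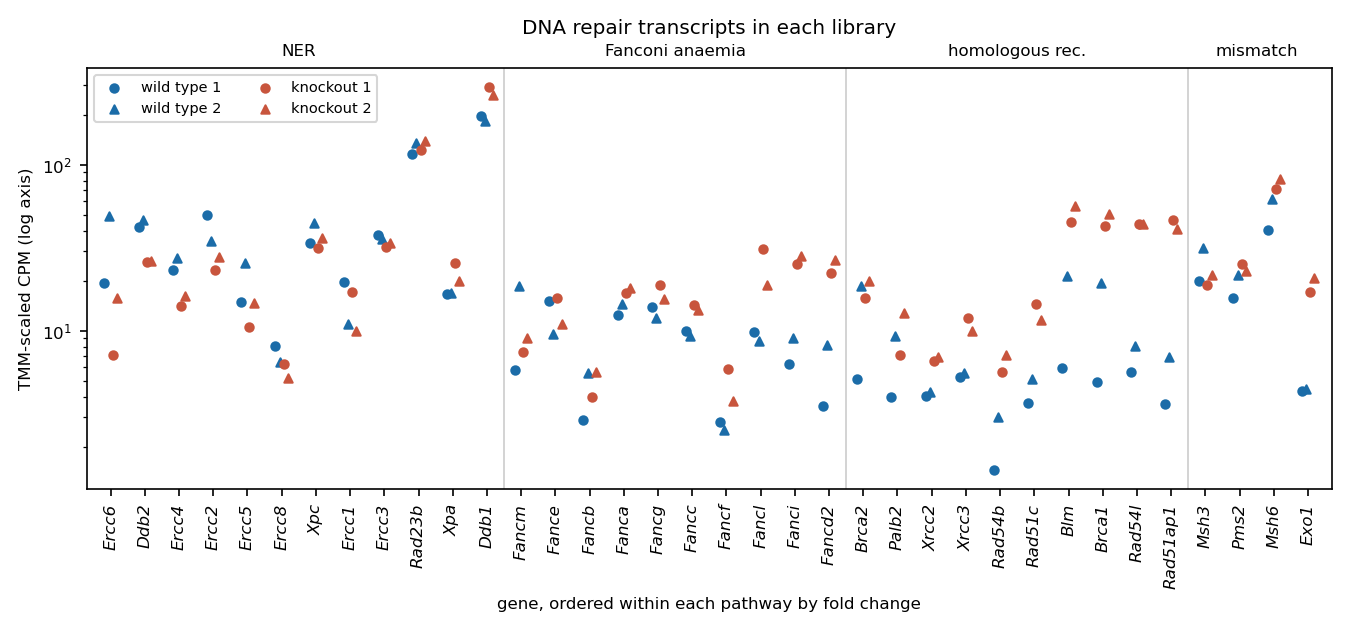
TMM-scaled CPM (log axis) of the 36 repair genes in the 2 wild-type libraries (blue) and the 2 knockout libraries (red), with library 1 as circles and library 2 as triangles. Both red symbols sit above both blue ones for 8 of the 10 homologous recombination genes, and below for 7 of the 12 excision repair genes.

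Homologous recombination had the largest median change of the 4 pathways. Its median log2 fold change was 1.54, and it was 1.97 between the libraries numbered 1 and 1.21 between those numbered 2. Every one of its 10 genes had a positive log2 fold change, as did 47.9% of all genes tested, and they lay between 0.58 and 3.06. Of the 10, 7 exceeded 1, against 18.2% of all genes tested. The test was passed by 2 of the 10. The geometric mean of the 10 genes was 4.11 and 8.22 CPM in wild-type libraries 1 and 2 and 17.5 and 19.3 CPM in knockout libraries 1 and 2. The wild-type libraries thus differed from each other more than the knockout libraries did, and wild-type library 1 was the lowest.

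Rad51ap1 codes for a protein that binds the strand exchange recombinase and promotes pairing with the template. Its transcript stood at 3.61 and 6.89 CPM in wild-type libraries 1 and 2 and at 46.6 and 40.9 CPM in knockout libraries 1 and 2. All knockout values were several times the wild-type values, with means of 43.7 ± 4.03 and 5.25 ± 2.32 CPM (SD, n = 2 each). Rad51ap1 rose by 3.06 ± 0.47 on the log2 scale, a fold of 8.31 (adjusted p = 0.015). The gene (ENSMUSG00000030346) lies on the minus strand at chr6:126923050-126939587 of GRCm38.

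Rad54l codes for a motor protein that remodels chromatin and drives strand invasion. It was measured at 5.64 and 8.03 CPM in wild-type libraries 1 and 2 and at 43.8 and 43.8 CPM in knockout libraries 1 and 2. The knockout libraries were nearly equal and lay far above both wild-type libraries. Rad54l rose by 2.68 ± 0.41 on the log2 scale, a fold of 6.40 (adjusted p = 0.015). The gene (ENSMUSG00000028702) is on the minus strand at chr4:116094264-116123690 of GRCm38, and 15.4% of its exonic bases are also exonic in Lrrc41 on the other strand. Its relative Rad54b, a related motor protein, was at 1.44 and 3.02 CPM in wild type and 5.61 and 7.11 CPM in knockout. The groups did not overlap for Rad54b, but its log2 fold change of 1.51 ± 0.53 did not pass (adjusted p = 0.13), and 35.8% of its exonic bases are shared with Fsbp on the same strand.

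Brca1, which steers broken ends toward recombination, and Blm, the helicase that dissolves joined molecules, had a similar pattern over the 4 libraries. Brca1 was at 4.88 and 19.3 CPM in wild-type libraries 1 and 2 and at 42.4 and 50.6 CPM in knockout libraries 1 and 2. Blm was at 5.98 and 21.2 CPM in wild-type libraries 1 and 2 and at 45.0 and 56.1 CPM in knockout libraries 1 and 2. For both genes every knockout value was above every wild-type value, yet the wild-type libraries themselves differed 3.96-fold for Brca1 and 3.54-fold for Blm. The log2 fold changes of 1.94 ± 0.64 for Brca1 (adjusted p = 0.11) and 1.90 ± 0.61 for Blm (adjusted p = 0.10) did not pass.

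Brca2, the mediator that loads the recombinase on single-stranded DNA, gave overlapping groups. Its levels were 5.10 and 18.7 CPM in wild-type libraries 1 and 2 and 15.6 and 19.9 CPM in knockout libraries 1 and 2. Only wild-type library 1 stood apart, and the log2 fold change was 0.58 ± 0.60 (adjusted p = 0.55). Without wild-type library 1 it was -0.08. Palb2, which bridges the products of Brca1 and Brca2, also overlapped, at 4.0 and 9.22 CPM in wild type and 7.12 and 12.7 CPM in knockout.

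The paralogs of the recombinase, which stabilise its filament, differed in size of change. Rad51c was at 3.66 and 5.09 CPM in wild-type libraries 1 and 2 and at 14.5 and 11.6 CPM in knockout libraries 1 and 2, a log2 fold change of 1.57 ± 0.42 (adjusted p = 0.069). Xrcc3 was at 5.26 and 5.54 CPM in wild type and 11.8 and 9.95 CPM in knockout, with a log2 fold change of 1.01 ± 0.39 (adjusted p = 0.15). For Xrcc2 the values were 4.04 and 4.26 CPM in wild type and 6.58 and 6.90 CPM in knockout, with a log2 fold change of 0.70 ± 0.42 (adjusted p = 0.31). None of these 3 passed, and in none did the groups overlap.

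The Fanconi anaemia genes showed their largest differences at the clamp of the pathway and at the ligase that marks it. The median log2 fold change of the 10 genes was 0.47, with 0.49 between the libraries numbered 1 and 0.46 between those numbered 2. Of the 10, 9 had a positive fold change and 1 passed the test. Fanci and Fancd2 code for the 2 subunits of the clamp that is ubiquitinated at a stalled fork. Fanci (ENSMUSG00000039187, chr7:79391929-79450264, plus strand) was at 6.25 and 9.07 CPM in wild-type libraries 1 and 2 and at 25.3 and 28.2 CPM in knockout libraries 1 and 2. The groups were well apart, and Fanci rose by 1.80 ± 0.40 on the log2 scale, a fold of 3.49 (adjusted p = 0.044). Its call was lost when knockout library 1 (1.88, adjusted p = 0.18) or 2 (1.73, adjusted p = 0.15) was left out, and 16% of its exonic bases are also exonic in Polg on the other strand.

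Fancd2 was at 3.52 and 8.20 CPM in wild-type libraries 1 and 2 and at 22.1 and 26.5 CPM in knockout libraries 1 and 2. Its fold was larger than that of its partner, at 2.05 ± 0.50 on the log2 scale, but the wider gap between the wild-type libraries went with an adjusted p of 0.058, which did not pass. Fancl, the E3 ligase that ubiquitinates the clamp, was at 9.84 and 8.69 CPM in wild type and 30.9 and 18.8 CPM in knockout, a log2 fold change of 1.42 ± 0.42 (adjusted p = 0.087). In these 2 genes, as in Fanci, each knockout library was above each wild-type library.

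The other core complex genes had smaller fold changes. Fanca, Fancb, Fancc, Fance, Fancf and Fancg, whose products hold the ligase in place, had log2 fold changes from 0.11 for Fance to 0.85 for Fancf, and none passed in the fit of all 4 libraries. Fancf was at 2.80 and 2.53 CPM in wild type and 5.84 and 3.77 CPM in knockout. Fancm, the translocase that anchors the complex on DNA, had the only negative fold change of the pathway. It stood at 5.80 and 18.6 CPM in wild-type libraries 1 and 2 and at 7.47 and 9.01 CPM in knockout libraries 1 and 2. Both knockout values lay between the wild-type values, and the fold change of -0.56 ± 0.57 (adjusted p = 0.54) was 0.37 between the libraries numbered 1 and -1.04 between those numbered 2.

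Excision repair, the pathway that acts on UVB lesions, had no gene that passed in either direction in the main fit. This was edgeR's fit of genotype alone, with all 4 libraries and TMM scaling. At an unadjusted p under 0.05 it had 1 gene of 12, Ercc6, where 27.7% of all genes were under that value. Other fits called Ercc6 lower: edgeR with library totals (adjusted p = 0.016), edgeR without wild-type library 1 (-2.11, adjusted p = 0.00064), where 14.6% of all genes fell, and the DESeq2 Wald test (adjusted p = 0.041), which called 6.2% of all genes lower. The median log2 fold change of the 12 genes was -0.28, with -0.29 and -0.31 between the libraries numbered 1 and 2, and 3 of the 12 were positive. Their geometric mean was 31.8 and 34.3 CPM in wild-type libraries 1 and 2 and 25.1 and 26.6 CPM in knockout libraries 1 and 2. The knockout libraries were the lower pair without overlap.

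Ercc6, which codes for the factor that detects an RNA polymerase stalled at a lesion, had the lowest fold change of the 36 genes. It was at 19.3 and 49.0 CPM in wild-type libraries 1 and 2 and at 7.12 and 15.8 CPM in knockout libraries 1 and 2. Every knockout value was below every wild-type value, and in each genotype library 2 held over 2 times the level of library 1. The log2 fold change was -1.57 ± 0.59 (adjusted p = 0.14). At 12851 exonic bases it is the longest excision repair gene here. With the trend of each library on exonic length removed in the fit, the log2 fold change of Ercc6 was -0.83 (adjusted p = 0.15). Ercc8, its partner in transcription-coupled repair, was at 8.01 and 6.51 CPM in wild type and 6.27 and 5.19 CPM in knockout, a log2 fold change of -0.34 (adjusted p = 0.61).

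Lesion recognition in the whole genome gave opposite signs within 1 complex. Ddb2, the subunit that binds the UV photoproduct, was at 42.2 and 46.2 CPM in wild-type libraries 1 and 2 and at 25.9 and 26.1 CPM in knockout libraries 1 and 2. Ddb1, the adaptor it shares with many ubiquitin ligases, was at 197 and 184 CPM in wild type and 293 and 262 CPM in knockout. Neither pair of groups overlapped, with Ddb2 lower at -0.77 ± 0.36 (adjusted p = 0.21) and Ddb1 higher at 0.54 ± 0.38 (adjusted p = 0.38) on the log2 scale, and neither passed. Xpc, the sensor of helix distortion, and its stabiliser Rad23b gave overlapping groups, at 33.7 and 44.6 against 31.2 and 36.1 CPM for Xpc. Of the exonic bases of Ddb2, 23.8% are also exonic in Acp2 on the other strand.

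The helicases and nucleases that open and cut the DNA had fold changes below 0 that did not pass. The TFIIH helicases Ercc2 and Ercc3 had log2 fold changes of -0.73 ± 0.39 (adjusted p = 0.26) and -0.17 ± 0.36 (adjusted p = 0.79). Of the incision nucleases, Ercc4 stood at 23.3 and 27.2 CPM in wild type and 14.1 and 16.3 CPM in knockout, at -0.74 ± 0.37 on the log2 scale (adjusted p = 0.24), Ercc5 was at -0.68 and Ercc1, the partner of the Ercc4 product, at -0.18. The groups did not overlap for Ercc2, Ercc3, Ercc4 and Ercc5 and overlapped for Ercc1. Xpa, which verifies the damage, had higher values in both knockout libraries, at 25.5 and 19.98 CPM against 16.7 and 16.9 CPM, with a log2 fold change of 0.44 ± 0.38 (adjusted p = 0.47).

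Of the mismatch repair genes, only the exonuclease passed. Exo1, which resects the strand that carries the error and also resects broken ends for recombination, was at 4.33 and 4.43 CPM in wild-type libraries 1 and 2 and at 17.1 and 20.6 CPM in knockout libraries 1 and 2. The wild-type libraries were nearly equal and the knockout libraries about alike and higher. Exo1 (ENSMUSG00000039748, chr1:175880581-175913489, plus strand) rose by 2.10 ± 0.39 on the log2 scale, a fold of 4.30 (adjusted p = 0.024). Its call was lost when knockout library 1 (2.23, adjusted p = 0.067) or 2 (1.97, adjusted p = 0.093) was left out. Msh6, which recognises single mismatches, was at 40.4 and 62.1 CPM in wild type and 71.0 and 82.1 CPM in knockout, a log2 fold change of 0.58 ± 0.39 (adjusted p = 0.36). Pms2, the endonuclease subunit, was at 15.6 and 21.7 CPM in wild type and 25.3 and 22.8 CPM in knockout, with a fold change of 0.37 (adjusted p = 0.56). For both, the knockout values were the higher ones, by less than the test could call.

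Msh3, which recognises larger loops, gave overlapping groups and the only negative fold change of the pathway. Msh3 was at 19.8 and 31.4 CPM in wild-type libraries 1 and 2 and at 18.8 and 21.5 CPM in knockout libraries 1 and 2, a log2 fold change of -0.35 ± 0.41 (adjusted p = 0.60).

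**Figure D2:**
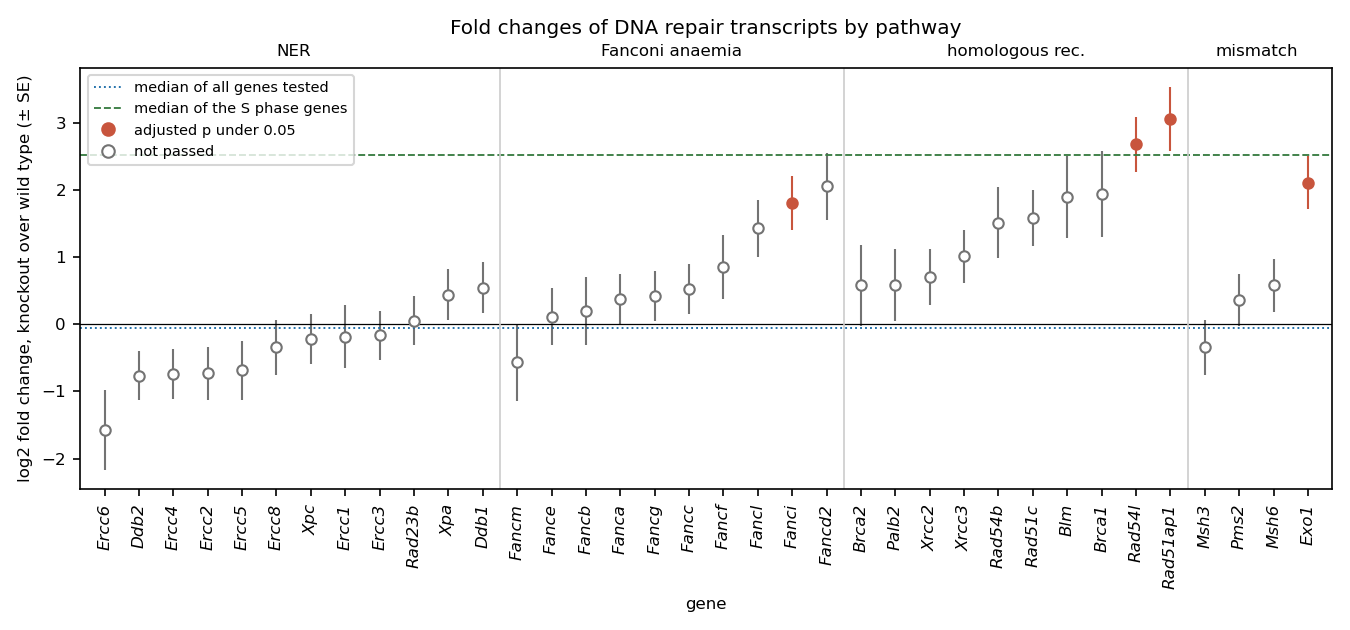
Log2 fold change of knockout over wild type (points, bars ± SE) for the 36 genes by pathway. Filled red points passed at an adjusted p under 0.05 (Fanci, Rad54l, Rad51ap1 and Exo1), the dotted line is the median of all genes tested (-0.06) and the dashed line the median of the S phase genes (2.51).

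Levels between genes were compared per kilobase of exonic length. In wild type the median level was 7.99 CPM per kb for excision repair, 2.29 for mismatch repair, 1.47 for the Fanconi anaemia genes and 0.95 for homologous recombination. In knockout it was 6.11, 2.60, 2.95 and 3.47 CPM per kb in the same order. The highest gene per kb in wild type was Ddb1 at 29.7 CPM per kb and the lowest Rad54b at 0.39 CPM per kb. The ratio of the geometric mean CPM of the recombination genes to that of the excision repair genes was 0.129 and 0.240 in wild-type libraries 1 and 2 and 0.70 and 0.728 in knockout libraries 1 and 2. This ratio was higher in both knockout libraries than in both wild-type libraries, and it does not change with the scaling of the libraries. The same ratio for the Fanconi anaemia genes was 0.219 and 0.254 in wild-type libraries 1 and 2 and 0.541 and 0.479 in knockout libraries 1 and 2.

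Scaling moved the zero point of the fold changes. With library totals alone in place of TMM factors, the median of all genes tested was -0.56 instead of -0.06 on the log2 scale. Homologous recombination then had a median of 1.01 with all 10 genes positive, and excision repair -0.80. The Fanconi anaemia and mismatch repair medians both turned to -0.05, which is 0.51 above the median of all genes under that scaling. Rad51ap1 and Rad54l still rose there, with 5.78% of all genes, and Fanci and Exo1 were not called. Ercc6 was called lower with 10.2% of all genes, at -2.01 (adjusted p = 0.016).

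Other genes of the same 4 pathways were read from lists that hold none of the 36. Over 17 further excision repair genes the median was 0.17, with 0.28 or 0.34 when wild-type library 1 or 2 was left out and -0.39 with library totals. Among 15 further crosslink repair genes 2 rose, the nuclease subunit Eme1 (2.53 ± 0.39, adjusted p = 0.015) and Ube2t (1.95 ± 0.41, adjusted p = 0.036), which codes for the conjugating enzyme that works with the Fancl ligase and whose call was lost without knockout library 1 (adjusted p = 0.23) or 2 (adjusted p = 0.065). Among 23 further recombination genes 2 rose, Fignl1 (3.06 ± 0.43, adjusted p = 0.012) and Bard1 (2.49 ± 0.45, adjusted p = 0.022), which codes for the partner of the Brca1 product. The median was 0.87 for the crosslink list, but 0.57 without wild-type library 2, 0.58 without knockout library 1, 0.54 with the length trend removed and 0.35 with library totals. For the recombination list it was 0.52, and it was 0.19 without wild-type library 1 and 0.01 with library totals. None of 3 further mismatch repair genes tested passed in this fit, with Msh5 at 0.65, Pms1 at -0.18 and Mlh3 at -0.51. In this fit no gene of these 4 lists fell.

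Repair pathways outside the 4 were read from lists in the same way. Base excision repair, which removes small damaged bases, had a median of -0.03 over 20 genes (-0.53 with library totals, 0.06 without knockout library 2, 0.23 without wild-type library 1), and 2 rose. These were Neil3, a glycosylase, at 3.12 ± 0.51 (adjusted p = 0.017), and the flap nuclease Fen1, which also trims Okazaki fragments, at 2.63 ± 0.45 (adjusted p = 0.018). Non-homologous end joining, which seals breaks without a template, had a median of -0.60 over 12 genes (-0.25 without wild-type library 2) with no call in the fit of all 4 libraries. Of the 12, 4 had an unadjusted p under 0.05, near the 27.7% of all genes, while 4 fell with library totals and 5 fell without wild-type library 1. Its genes with the smallest p were Polm at -1.28 ± 0.37 (adjusted p = 0.085), Prkdc at -1.38 ± 0.54 (adjusted p = 0.16) and Lig4 at -1.28 ± 0.52 (adjusted p = 0.16). Translesion synthesis, the bypass of lesions by special polymerases, had a median of -0.20 over 8 genes. It was 0.25 without wild-type library 2, with 1 gene that rose, and -0.51 without wild-type library 1, with 2 that fell. In the fit of all 4 libraries none passed, with Polh, the polymerase that bypasses pyrimidine dimers, at 0.71 ± 0.41 (adjusted p = 0.29). Of 15 factors that fill and ligate gaps both in repair and at the replication fork, 5 rose: Lig1, Pole2, Rfc4, Pcna and Rpa3. Their list had a median of 1.44, and without knockout library 1 the test was passed by 1 of the 15.

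**Figure D3:**
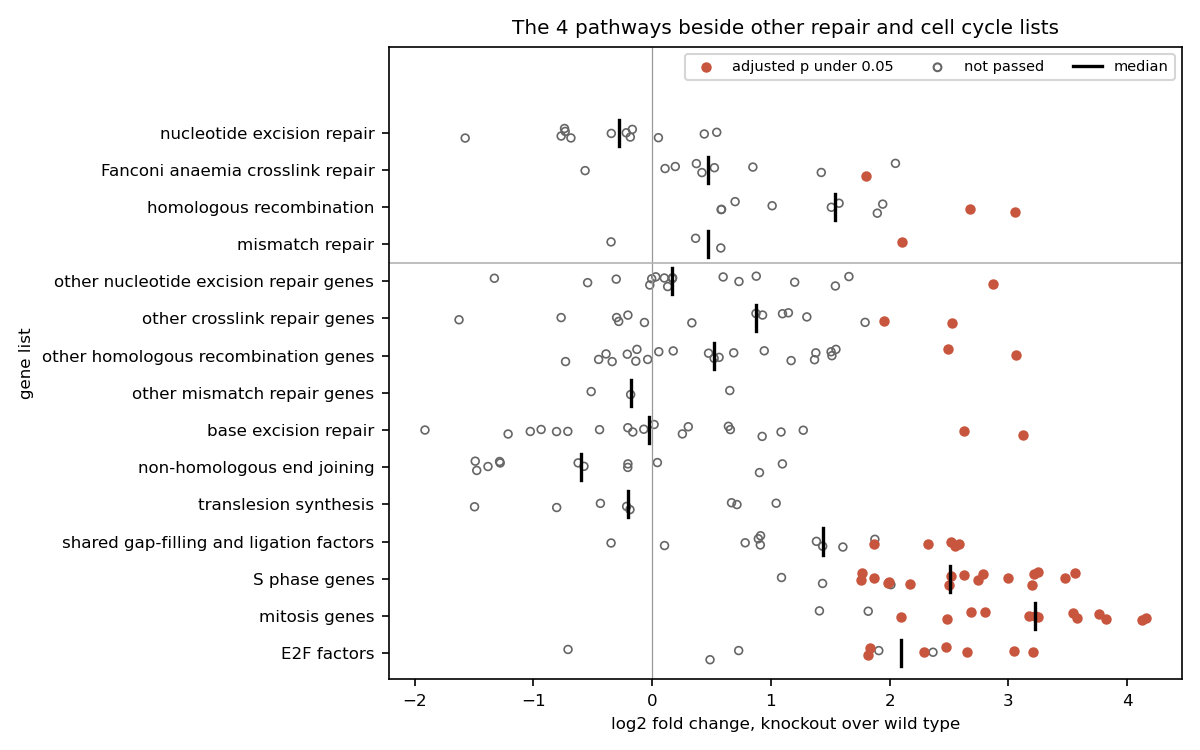
Log2 fold changes of knockout over wild type for single genes (points, filled red where the adjusted p was under 0.05) in the 4 pathways, above the grey line, and in 11 other lists below it, with the median of each list as a black bar. The medians run from -0.60 for non-homologous end joining to 3.22 for mitosis genes, and homologous recombination lies at 1.54.

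Cell cycle lists had higher medians than any of the 4 repair pathways. Of 20 S phase genes, 17 rose, with a median of 2.51, and 10 did so without knockout library 1. Of 15 mitosis genes 13 rose, with a median of 3.22. The geometric mean of the S phase genes was 26.6 and 26.5 CPM in wild-type libraries 1 and 2 and 164 and 133 CPM in knockout libraries 1 and 2. Of 12 E2F and partner genes, which control the G1 to S transition and mitosis, 7 rose, among them E2f1 at 2.65 ± 0.42 (adjusted p = 0.016) and Mybl2 at 3.20 ± 0.43 (adjusted p = 0.012). Set against the S phase geometric mean of their own library, 31 of the 36 repair genes were lower in both knockout libraries than in both wild-type libraries, with a median change of -1.99 on the log2 scale. This scale divides by genes of which most rose, and on it 89.7% of all genes tested were lower in the same way, with a median of -2.51, so the count for the repair genes is near that of all genes. The groups overlapped on this relative scale for Fancd2, Brca1, Rad54l and Blm. Rad51ap1 was the only one of the 36 higher in both knockout libraries, by 0.66, where 3.38% of all genes were, and Exo1 changed by -0.37 and Fanci by -0.64. All 12 excision repair genes were lower on this scale, from -1.93 for Ddb1 to -4.01 for Ercc6. What part the number of dividing cells has in the repair transcripts was not tested, and in bulk RNA fewer cells of a type and less RNA per cell cannot be told apart.

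Markers of spleen cell types differed between the genotypes as well. All 12 neutrophil and granulocyte precursor markers rose, with a summed level of 909 and 379 CPM in wild-type libraries 1 and 2 and 29693 and 27691 CPM in knockout libraries 1 and 2. Of 12 erythroid precursor markers 6 rose, with sums of 1494 and 2418 CPM in wild type and 16451 and 10477 CPM in knockout, and 9 to 11 rose when 1 library was left out. In edgeR's fit of all 4 libraries with TMM scaling none of 12 B cell and 12 T cell markers passed, with medians of -1.24 and -1.11 and sums from 6284 to 7216 CPM in wild type and 3018 to 3655 CPM in knockout for B cells. Other fits with edgeR called B cell and T cell markers lower. The replicate number goes with the sex pattern, though no label states that it pairs mice. With this number as a block 10 and 11 fell, beside 19.7% of all genes. Library totals gave 9 and 6 (10.2% of all genes). Removing the length trend gave 7 and 6 (3.73%), and using no filter on low counts gave 4 and 4 (2.82%). When 1 library at a time was dropped, the medians ran from -1.32 to -1.27 for B cell and from -1.26 to -0.76 for T cell markers. Transcripts of both B and T cell markers were counted in all 4 libraries. The other lists had medians of -0.90 (6 NK cell markers), 0.02 (5 plasma cell), 0.84 (9 macrophage and monocyte, and 0.54 without knockout library 1), -0.79 (6 dendritic cell), 1.24 (5 megakaryocyte, of which Gp9 rose, though not without knockout library 1) and 0.62 (6 stem and progenitor, of which Cd34 rose, though not without knockout library 2). The plasma cell median was 0.97 when wild-type library 1 was left out, -0.71 when library 2 was and -0.48 with library totals. The stem and progenitor median was 0.01 without knockout library 2 and 1.02 without knockout library 1. The part of these cell types in the repair values was not tested.

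Transcript length moved with the differences between libraries of 1 genotype. Over all genes with a mean of at least 1 CPM, the median log2 ratio of wild-type library 2 over library 1 ran from -0.79 for genes of up to 2000 exonic bases to 1.04 for genes over 10000. Across the 36 repair genes, log2 exonic length and that ratio had a Pearson correlation of 0.59, and the same value of 0.59 held between the knockout libraries. These points share the libraries and their depth. At least 2-fold higher in wild-type library 2 than in library 1 were 8 genes (Ercc6, Fancm, Fancd2, Brca1, Brca2, Palb2, Rad54b and Blm), the shortest of them with 5782 exonic bases. Between genotypes the median of all genes fell from 0.62 in the shortest class to -0.86 in the longest, whereas over the 36 genes length and fold change had a correlation of 0.02. Against the median of its own length class, every one of the 10 recombination genes was higher, as were 9 of 10 Fanconi anaemia genes, 4 of 4 mismatch repair genes and 2 of 12 excision repair genes.

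An alternative fit, chosen after the data were seen, removed the trend of each library on exonic length. In it 11 of the 36 genes rose, where 10.5% of all genes rose. Beside the 4 named above these were Fancl, Fancd2, Rad51c, Brca1, Brca2, Rad54b and Blm. The median log2 fold changes were 1.67 for homologous recombination, 0.57 for the Fanconi anaemia genes, 0.68 for mismatch repair and -0.37 for excision repair, where again no gene passed, although 3.73% of all genes fell.

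**Figure D4:**
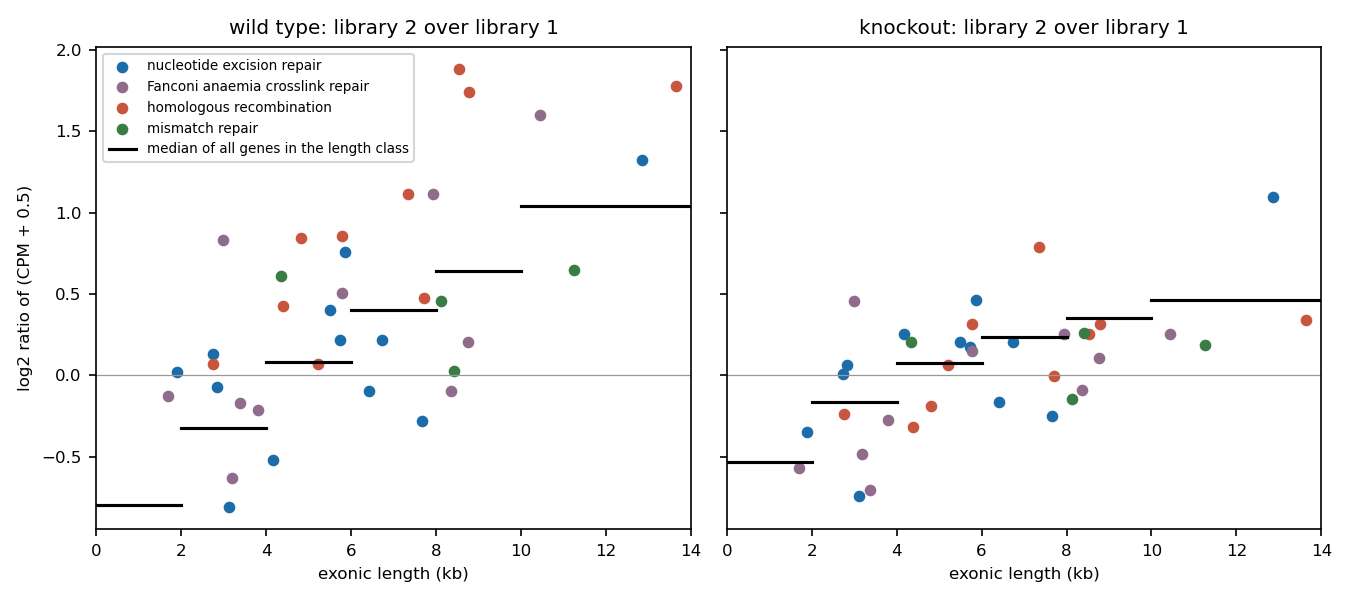
Log2 ratio of library 2 over library 1 (CPM + 0.5) against exonic length in kb for the 36 repair genes (points, coloured by pathway), in wild type (left) and knockout (right). Black bars are the medians of all genes in each length class, which run from -0.79 to 1.04 in wild type and from -0.53 to 0.46 in knockout, and long recombination genes such as Brca1 and Blm lie above them in wild type.

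Promoters were read because several of the genes rose, as most of the S phase genes did. RefSeq promoter sequence on GRCm38.p6, from 250 bases before to 50 after a start, was given for 29 of the 36 genes. Sites of the E2F family, factors of the G1 to S transition, were searched as the words TTTGGCGC, TTTCCCGC and TTCCCGCC on both strands, of which the last 2 overlap each other in a longer site. At least 1 of the words was found in 8 of the 29 (27.6%), in 3.69% of the 27025 genes with a promoter in the table and in 10 of 16 S phase genes (62.5%). By pathway the count was 3 of 8 recombination genes, 3 of 9 Fanconi anaemia genes, 2 of 3 mismatch repair genes and 0 of 9 excision repair genes. Outside the 4 pathways it was 2 of 9 non-homologous end joining genes and 1 of 17 base excision repair genes. A match is a description of the letters and was not tested for binding. The 27025 genes were not limited to those expressed in these libraries and were not matched for base composition. The shares of this and the other motifs are thus not set against a like group of promoters. Of the 8, 7 stretches are given to show the words in their place, and none is from an excision repair gene. Each is 30 bases on the strand of the gene, with the word, or 2 overlapping words, in capitals.
Rad51ap1: gtctggttttcGGCGGGAAttgaaaccgcc
Rad51c: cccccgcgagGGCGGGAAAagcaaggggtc
Brca2: tttaggccacaGCGGGAAAcagacacacac
Fancb: tccggggtagaGGCGGGAAtaagtgctctg
Fancg: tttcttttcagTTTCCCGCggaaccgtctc
Fancm: aaccaatcatcTTCCCGCCgcaaaatcggc
Msh6: tcctcccgacTTTCCCGCCagcggcggccg

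These windows lie at chr6:126939558-126939587 for Rad51ap1, chr11:87404941-87404970 for Rad51c, chr5:150522442-150522471 for Brca2, chrX:164980408-164980437 for Fancb, chr4:43010335-43010364 for Fancg, chr12:65075538-65075567 for Fancm and chr17:87975055-87975084 for Msh6. The word starts 12 bases after the start of Rad51ap1 and 6 bases before that of Rad51c. Genes with a word included Rad51ap1, with the highest fold change of the 36, and also Fancb, Fancm, Brca2 and Msh3, whose groups overlapped. Genes without a word in the window included Rad54l and Fanci, which rose.

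A CCAAT box, a promoter element bound by the NF-Y factor, was found in 20 of 29 repair promoters (69.0%) and in 41.1% of all genes in the table. Excision repair did not stand below the rest here, with 6 of 9, against 6 of 8 for recombination. The motif TTTGAA, the core of elements of cell cycle genes, was found in 1 of 29 and in 20.2% of all. A decamer of the p53 site was found in 2 of 29, in Fanca and Fancg, and in 9.55% of all. The bases before the start of the 2 recombination genes that rose are shown, with the CCAAT box on either strand in capitals. They come from chr6:126939588-126939837 (250 bases) and chr4:116123691-116123839 (149 bases), both on the minus strand.
Rad51ap1: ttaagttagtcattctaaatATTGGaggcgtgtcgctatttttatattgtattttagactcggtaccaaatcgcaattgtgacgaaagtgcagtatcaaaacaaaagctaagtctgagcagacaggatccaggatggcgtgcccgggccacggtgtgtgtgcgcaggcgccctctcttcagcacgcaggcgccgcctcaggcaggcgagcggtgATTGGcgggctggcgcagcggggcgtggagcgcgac
Rad54l: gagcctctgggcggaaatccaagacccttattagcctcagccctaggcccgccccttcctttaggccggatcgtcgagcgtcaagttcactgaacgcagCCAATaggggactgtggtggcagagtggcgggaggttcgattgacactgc

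Rad51ap1 has 2 such boxes in its window and Rad54l has 1. GC content was 55.2% in the Rad51ap1 stretch and 59.7% in that of Rad54l.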

How the data were processed

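The authors made estimated counts per Ensembl gene from the reads of 4 splenocyte libraries and deposited them as 1 table. RSEM 1.2.25, STAR 2.5.0 and SAMtools 1.18 are listed, beside the build GRCm38, per the submitters' processing notes, which give no step for each. Which annotation release and strand setting were used for counting is not stated there, so counts of genes that share exonic bases with another gene (21 of the 36) are uncertain. The deposited counts were whole numbers and rounding changed none. The 92 spike-in rows held 0 counts and were left out. Of 25509 gene rows, 25251 matched a symbol in the GENCODE M21 annotation of GRCm38, which also gave exonic lengths, and 258 did not.

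Groups came from the sample titles. Genotypes were compared with edgeR 4.0.16 (R 4.3.3): TMM scaling, filterByExpr, robust dispersions, the quasi-likelihood F test with 2 residual degrees of freedom and Benjamini-Hochberg adjustment over 13532 genes. Every adjusted p in the text is from this test unless another is named, and a gene passed, rose or fell at an adjusted p under 0.05. Levels are TMM-scaled CPM computed here, and a ± on a fold change is its SE. Fold changes between libraries of 1 number used a prior count of 0.5. Alternatives used DESeq2 1.42.0, limma 3.58.1, other scalings and filters, and each library left out. The fits were tested on simulated data. The genes and lists were chosen with earlier results of these data known. Named genes are the 36, Trim21, up to 3 genes of smallest p in each other repair or cell cycle list and up to 2 in each cell type list, of which not every one is reported here, plus Pcna, Rpa3 and overlapping neighbours, chosen after their values were seen. The pair of libraries of either genotype differed beyond sampling noise (chi-square per degree of freedom 476 in wild type and 345 in knockout). Some results of the other lists, and the window of 1 gene, are not reported here.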

Additional observations from a re-analysis of the deposited data

How the results depend on the processing

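Calls of rises among the 36 genes were the same 4 genes with DESeq2 size factors, a filter of CPM above 1 in 2 libraries, non-robust dispersion, and without haemoglobin or mitochondrial genes. Every setting below gave other counts, and the cause was not tested. All genes that rose and fell numbered 1557 and 889 with the DESeq2 Wald test (10.9% and 6.2% of those tested). They were 1278 and 490 with no filter (7.36% and 2.82%) and 1421 and 504 with the length trend removed (10.5% and 3.73%). At an adjusted p under 0.10 they were 1373 and 558 (10.1% and 4.12%), and under 0.01 they were 0 and 0. With library totals alone 5.78% rose and 1376 fell (10.2%), and with limma-voom 6.58% rose. Of the 36, 9 rose with the DESeq2 Wald test (5 of recombination, 3 of the Fanconi anaemia pathway) and 1 fell, the excision repair gene Ercc6. With no filter 8 rose (5 and 2), with limma-voom 2 Fanconi anaemia genes did, at an adjusted p under 0.10 it was 7 (3 of Fanconi anaemia), and under 0.01 it was 0 in every pathway. With the length trend removed 11 rose (7 of recombination, 3 of Fanconi anaemia). With library totals 2 rose, with 0 of Fanconi anaemia and 0 of mismatch repair, and 1 fell, Ercc6.

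The labels do not say that a replicate number pairs mice, but in both genotypes the number goes with the male or female pattern. A block on the number therefore also takes up the difference in sex pattern, along with anything else that differs between the numbers. The deviations of the libraries numbered 1 from their genotype means had a correlation of 0.63 across genes. The common dispersion was 0.061 with the block, which left 1 residual degree of freedom, and 0.14 in the main fit. With the replicate block in the fit, 3036 genes rose and 2669 fell, which is 22.4% and 19.7% of all genes tested. Of the 36, 12 rose (8 of recombination, 3 of Fanconi anaemia) and 4 fell, all 4 of excision repair: Ercc6, Ddb2, Ercc2 and Ercc4.

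Leaving out 1 library at a time gave 601 to 2300 rises and 30 to 2047 falls over all genes, and 2 to 11 rises and 0 to 2 falls among the 36. By pathway the rises were 2 to 7 for recombination, 0 to 3 for Fanconi anaemia and 0 to 1 for mismatch repair, and the falls 0 to 1 for excision repair (Ercc6) and 0 to 1 for Fanconi anaemia (Fancm). Rad51ap1 and Rad54l were called in all 4 of these fits. The counts were 9 and 11 rises without wild-type library 1 or 2 and 2 without either knockout library. A genotype left with 1 library takes its spread from the other genotype's pair, with a common dispersion of 0.087 without a wild-type library, 0.20 without a knockout library and 0.14 with all.

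Some fold changes that had not passed changed sign. With library totals these were Xpa -0.10, Rad23b -0.44, Fanca -0.13, Fancb -0.29, Fance -0.43, Fancg -0.11 and Pms2 -0.17, and with the length trend removed Xpa -0.050, Fancb -0.058, Fance -0.037, Fancm 0.11 and Msh3 0.27. Leaving out 1 library at a time, the values ran from -0.61 (without knockout library 1) to 0.28 (without wild-type library 1) for Ercc1, with 0.16 without knockout library 2. They ran from -0.42 to 0.0024 for Xpc, from -0.65 to 0.024 for Msh3 and from -1.18 to 0.51 for Fancm, each lowest without wild-type library 1 and highest without wild-type library 2. The same 2 libraries set the range for Brca2 (-0.082 to 1.80), Fancb (-0.21 to 0.74, with -0.074 without knockout library 2) and Rad23b (-0.066 to 0.17, with -0.029 without knockout library 2). Fance ran from -0.18 without wild-type library 2 to 0.46 without wild-type library 1, with -0.16 without knockout library 1.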

Other observations

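Of the 36 genes, 14 start within 1000 bp of a protein-coding start on the other strand. At the 4 of these places where a repair gene had a log2 fold change over 1.9 the neighbour's lay between -0.74 and 0.48. D6Wsu163e, with its start 375 bp from that of Rad51ap1, was at 14.4 and 15.6 CPM in wild type and 15.4 and 18.2 CPM in knockout, with a log2 fold change of 0.16 (adjusted p = 0.80). Pomgnt1, 150 bp from Rad54l, had a log2 fold change of -0.74 (adjusted p = 0.26), and Nbr1, 194 bp from Brca1, one of 0.17 (adjusted p = 0.83). Emc3, 30 bp from Fancd2, had one of 0.48 (adjusted p = 0.45).

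The excision repair genes with such a neighbour were Xpc, Ercc8 and Ddb1, and their neighbours had positive fold changes. Lsm3, 40 bp from Xpc, was at 35.1 and 21.2 CPM in wild type and 80.6 and 59.1 CPM in knockout, a log2 fold change of 1.31 (adjusted p = 0.10), where Xpc itself was at -0.22. Ndufaf2, 108 bp from Ercc8, had a log2 fold change of 1.36 (adjusted p = 0.091), where Ercc8 was at -0.34. Tkfc, 327 bp from Ddb1, had a log2 fold change of 0.61 (adjusted p = 0.37), where Ddb1 was at 0.54. None of these neighbours passed, and the difference between a gene and its neighbour was not tested. Their exonic lengths, with which fold changes moved over all genes, were not compared.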
